A study of Mus musculus with 25 samples.

Results

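An siRNA against FANCM was compared with a control siRNA against luciferase in mouse embryonic stem cells of genotype BRCA1flox/exon11 that also received Tus. All junctions deposited for the siFANCM and siLuciferase groups were taken, 2494 of the 11867 junctions in the series. The siFANCM group held 1313 of them, and the siLuciferase group held 1181. Both groups carried the 4-kb 1xGFP cassette with its Ter array at ROSA26, and both were transfected with Tus, the Cas9 nuclease with its guide, and an siRNA. The Cas9 cut, 30 kb away from the cassette, served as the bait. Genomic DNA was taken 48 h after transfection from cells grown on feeder fibroblasts, and junctions were read by LAM-HTGTS, a linear-amplification method of translocation sequencing. The groups used for comparison shared the cassette, the bait and Tus: siBLM and siBRCA1 in BRCA1flox/exon11 cells, and siFANCM and siLuciferase in BRCA1del/exon11 cells. The label BRCA1del marks the genotype in which the labels give del in place of flox.

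FANCM is a DNA translocase that anchors the Fanconi anaemia core complex on DNA and remodels stalled replication forks. BLM is a RecQ helicase that dissolves recombination intermediates, and BRCA1 promotes homologous recombination at broken and stalled forks. Tus is a bacterial protein that binds Ter elements and blocks a fork arriving from its non-permissive side. In LAM-HTGTS a primer near a Cas9 cut copies outward across the cut, so each read starts in the bait and continues into whatever DNA end the bait was joined to. Here the joined DNA, called prey, is the cassette. A join is called leftward where the prey runs from the junction toward cassette position 1, and rightward where it runs toward the other end at position 3928.

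Joins to the array mostly linked a shortened bait end to a Ter element, and a few short sequences recur through the results. The bait, read 5′ to 3′ up to its most common end in the series, closes with the 30 bases shown first. The joins after it were picked from the commonest complete joins of each group, not all of which are printed. They include joins with an intact bait end seen in siFANCM cells. A rightward join with the longest recurrent overlap was added. Capitals mark bases shared by bait and prey (microhomology), and the bait stands to the left of them. Shared bases were counted as bait, so an end called intact may include them.
Bait end: cagttcgaaactaggcaggagtaacttgct
Leftward join at position 3070 in Ter 1, and equally at 3188 in Ter 4: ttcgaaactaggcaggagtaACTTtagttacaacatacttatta
Leftward join at 3065 in Ter 1: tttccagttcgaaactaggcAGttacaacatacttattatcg
Leftward join at 3057 in Ter 1: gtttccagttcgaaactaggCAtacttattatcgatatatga
Leftward blunt join at 3055 in Ter 1, bait end intact: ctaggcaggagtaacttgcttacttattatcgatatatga
Leftward join at 3038 before Ter 1, bait end intact: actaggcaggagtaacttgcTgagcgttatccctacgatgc
Rightward join at 3206 in Ter 5: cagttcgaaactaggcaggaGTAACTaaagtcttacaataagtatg
The ACTT join had lost 3 bases of bait. In the shared runs it was listed 3 times with siFANCM and 6 times with siLuciferase at position 3070, and 3 and 4 times at position 3188. The sequence is the same at both positions, so a read that stops inside the array does not show which was joined. The blunt join at 3055 and the 1-base join at 3038 were each read 2 times with siFANCM and 0 times with siLuciferase. These counts are too small to compare the groups.

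The array, located by sequence, spans positions 3024 to 3277 and holds 6 copies of the 23-base Ter element, called Ter 1 (3048 to 3070), Ter 2 (3076 to 3098), Ter 3 (3104 to 3126), Ter 4 (3166 to 3188), Ter 5 (3194 to 3216) and Ter 6 (3222 to 3244). An I-SceI site follows at 3260 to 3277. Positions are 1-based cassette coordinates and not coordinates of a genome build. The first 3 Ter elements and the last 3 lie in a pair of repeats with 116 identical bases, so a read that stops inside the array can be placed in either repeat. Shares and medians along the array are given only for reads that reach at least 20 bases of unique sequence beyond it, called placed joins. Single joins, the most frequent positions and values within any Ter element use the listed position of every array join, placed or not.

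Each group's table pools its samples, and read names separate the sequencing runs, here A to D. Runs C and D held both groups. The siFANCM libraries held 634 junctions in run B, 479 in run C and 200 in run D, and the siLuciferase libraries held 933 in run C and 248 in run D. Libraries of the whole series held 148 to 933. Conditions were compared within runs C and D by an exact conditional test of a common odds ratio over runs, two-sided, with Benjamini-Hochberg adjustment over the 13 measures tested, and 5 of 13 passed an adjusted p of 0.05. Differences of shares are siFANCM minus siLuciferase in percentage points, with 95% intervals. Intervals and tests over junctions cover counting error only, since joins of a library are not replicates of a condition. No read sequence was repeated within a library of either group, but how duplicates were removed is not given. Nothing in the labels says that samples were separate cultures, and the spread between runs may be technical. As a check over libraries, an exact permutation of 3 against 2 libraries cannot give a p below 0.1. The libraries of runs C and D carried the same read barcode within each group, but shared no body molecule (same position, strand, alignment ends and bait end): 0 were shared for siFANCM and 0 for siLuciferase. Knockdown of FANCM cannot be seen in DNA junctions. Junction numbers are not read as frequencies of breakage, as library totals outside the cassette were not analysed here.

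**Figure D1:**
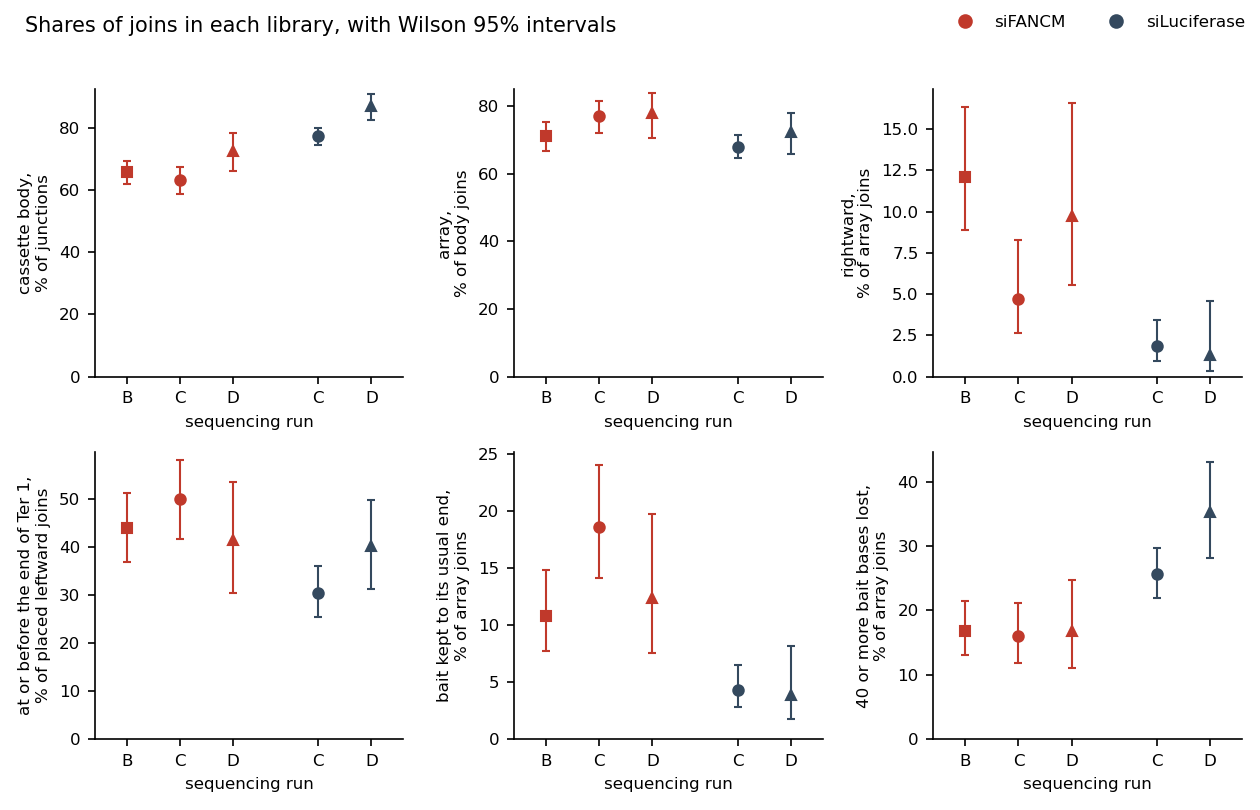
Shares of joins in each siFANCM (red) and siLuciferase (dark) library, by sequencing run, in percent; points are libraries and bars are Wilson 95% intervals. The siFANCM and siLuciferase libraries do not overlap for the body share, the rightward share, the share up to Ter 1, intact bait ends, or losses of 40 or more bait bases; they overlap for the array share.

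A smaller share of junctions fell in the cassette body (positions 1 to 3617, up to the last XbaI site) with siFANCM than with siLuciferase, and a larger share in the end piece from 3618 to 3928. XbaI is the enzyme that the labels give for blocking. With siFANCM, 65.8% of junctions lay in the body in run B, 63.0% in run C and 72.5% in run D. With siLuciferase, the shares were 77.4% in run C and 87.1% in run D. All 3 siFANCM libraries were below both siLuciferase libraries, at 67.1% ± 4.87 (SD, n = 3 libraries) against 82.2% ± 6.87 (SD, n = 2 libraries). The difference was -14.4 points (-18.6 to -10.2; odds ratio 0.475, 0.381 to 0.592; exact test, adjusted p = 1.6e-10). It was -14.3 points in run C and -14.6 points in run D, and the exact permutation over libraries gave p = 0.1. The difference did not pass once reads with many unaligned bases, most of them in the end piece, were left out, as given next.

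Reads in the end piece differed from the other reads in a way that also varied by run. In 78.3%, 84.7% and 67.3% of the siFANCM end-piece reads of runs B, C and D, at least 20 bases between the bait and the adapter were not covered by the deposited alignment. In the siLuciferase libraries this held for 79.1% in run C and 34.4% in run D. Among array joins the same share was 4.38%, 14.6% and 5.31% with siFANCM and 19.96% and 1.28% with siLuciferase. In both groups run C was thus above run D. Without all such reads, the body held 257 of 284 junctions (90.5%) with siFANCM and 568 of 612 (92.8%) with siLuciferase in run C, and 135 of 153 (88.2%) and 212 of 233 (90.99%) in run D. The difference was then -2.46 points (-5.83 to 0.917; exact test, adjusted p = 0.230), of the same sign in both runs and no longer past the threshold. This alternative was added after the data had been seen.

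Within the body, joins were concentrated in the array, and more so with siFANCM. The array held 71.2%, 77.2% and 77.9% of body joins in the siFANCM libraries of runs B, C and D, and 68.0% and 72.2% in the siLuciferase libraries of runs C and D. Run B of siFANCM lay below run D of siLuciferase, so the groups overlap. Within the shared runs the difference was 8.15 points (3.25 to 13.1; odds ratio 1.52; exact test, adjusted p = 0.00536). In run C it was 9.15 points (3.32 to 14.98), whereas in run D it was 5.71 points (-3.30 to 14.7), an interval that includes 0.

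Leftward joins left of the array, which lie on the side of the array nearer position 1, made up 21.6%, 19.0% and 15% of leftward joins up to the array's end with siFANCM. With siLuciferase they made up 24.1% and 21.4%. The difference of -5.48 points (-10.2 to -0.721; exact test, adjusted p = 0.0663) did not pass. In runs C and D these joins lay farther out with siFANCM. Their median distance from the array was 316 bp (quartiles 110 to 1201 bp; 70 joins), against 236 bp (82 to 390 bp; 195 joins) with siLuciferase. More than 1000 bp from the array lay 23 of the 70 siFANCM joins and 35 of the 195 siLuciferase joins; this distance was described and not tested. In run B of siFANCM the median was 179.5 bp, below both siLuciferase values of 257 bp and 188.5 bp, so the larger distance was not seen in every library. Rightward joins made up 17.5% of joins left of the array in run C and 37.9% in run D with siFANCM, and 31.4% and 25% with siLuciferase. The siFANCM difference in this share was negative in run C and positive in run D, and over both runs it was -6.41 points (-16.7 to 3.89; exact test, adjusted p = 0.371).

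Joins to the right of the array, between the I-SceI site and the last XbaI site, were few. They made up 4.08%, 1.99% and 2.07% of body joins with siFANCM, and 1.11% and 1.85% with siLuciferase. The difference within shared runs was 0.687 points (-0.812 to 2.19; exact test, adjusted p = 0.416). Over all runs, 13 of the 26 siFANCM joins there were rightward. With siLuciferase 1 of 12 was. Most of the siFANCM ones, 8 of 13, came from run B, which has no siLuciferase library.

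**Figure D2:**
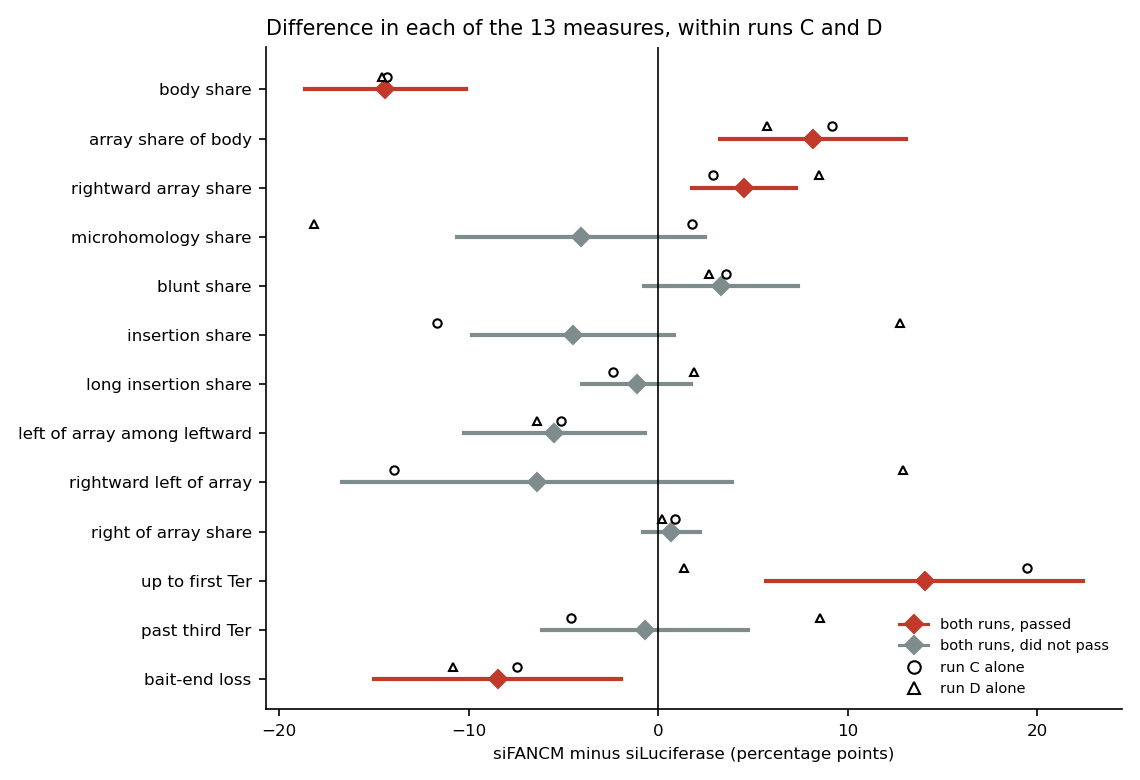
Difference of siFANCM minus siLuciferase in percentage points for the 13 measures: diamonds and lines give the value and 95% interval over runs C and D (red where the measure passed), circles run C alone and triangles run D alone. Runs C and D lie on the same side of 0 for 8 measures and on opposite sides for 5.

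Orientation of joins inside the array shifted with siFANCM. Nearly all array joins were leftward in siLuciferase cells, where rightward joins were 9 of 491 (1.83%) in run C and 2 of 156 (1.28%) in run D. With siFANCM they were 36 of 297 (12.1%) in run B, 11 of 233 (4.72%) in run C and 11 of 113 (9.73%) in run D. Every siFANCM library was above both siLuciferase libraries. The group values were 8.86% ± 3.78 (SD, n = 3 libraries) and 1.56% ± 0.39 (SD, n = 2 libraries). The difference in the shared runs was 4.52 points (1.78 to 7.26), with an odds ratio of 3.76 (1.72 to 8.73; exact test, adjusted p = 0.0020). In run C alone it was 2.89 points (-0.0825 to 5.86), and in run D alone it was 8.45 points (2.71 to 14.2). Without run D the adjusted p (exact test) was 0.105. The permutation over libraries gave an exact p of 0.2. Numbers are small, at 22 rightward joins with siFANCM and 11 with siLuciferase in these runs.

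Placed rightward joins lay mostly in the right repeat. Of the 58 siFANCM rightward joins, 36 were placed, and 17 of these lay in Ter 5 and 11 in Ter 6. In the shared runs 7 of 13 placed siFANCM joins were in Ter 5 and 3 in Ter 6. The 5 placed siLuciferase joins were spread over Ter 3, Ter 4, Ter 5, Ter 6 and the I-SceI site with 1 join each. A read that is placed must reach unique sequence on the side toward which it runs, which favours the right repeat for rightward joins and the left repeat for leftward ones.

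Overlaps of 4 or more bases were found in 14 of the 58 siFANCM rightward joins (24.1%), beside 57 of 584 leftward ones (9.76%) in the same libraries. They were 11 of 36 rightward joins in run B (30.6%), 2 of 11 in run C and 1 of 11 in run D. Without run B they were 3 of 22 (13.6%), and in siLuciferase cells 2 of 11. The most frequent of them was the 6-base overlap GTAACT, which the bait end and the rightward strand of each Ter element both contain. It joined 7 of the 58 siFANCM rightward ends, 5 of them in run B, and 1 of the 11 siLuciferase ones. This string was picked out after the joins had been seen. The printed join at 3206 is an example, with 4 bases of bait lost, and the same overlap was read at 3234 in Ter 6.

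Leftward joins inside the array sat closer to its left edge with siFANCM. Joins at or before the end of Ter 1, the first Ter element counted from position 1, made up 44.0%, 50.0% and 41.5% of placed leftward joins in siFANCM runs B, C and D. In siLuciferase cells they made up 30.5% in run C and 40.2% in run D. The siFANCM libraries all lay above the siLuciferase libraries, although run D of siFANCM and run D of siLuciferase nearly coincided. The difference was 14.05 points (5.68 to 22.4; odds ratio 1.80; exact test, adjusted p = 0.00413). It rested on run C, where it was 19.5 points (9.57 to 29.4), while in run D it was 1.34 points (-13.96 to 16.6). Counting each position and strand once per library left 10.5 points, which missed the threshold (exact test, adjusted p = 0.176). Counting each position, strand and bait end once per library gave 14.8 points, which passed (exact test, adjusted p = 0.0032).

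Element by element, Ter 1 held 73 of 203 placed leftward joins (36.0%) with siFANCM in the shared runs and 94 of 387 (24.3%) with siLuciferase. Ter 2 held 20.2% and 27.6%, and Ter 3 held 9.85% and 13.95%. The stretch before Ter 1 held 11.3% and 8.79%. The median placed position was 3076 in run B, 3070.5 in run C and 3074 in run D with siFANCM, and 3089 in run C and 3077 in run D with siLuciferase. Beyond the end of Ter 3 lay 18.7%, 9.42% and 15.4% of placed leftward joins with siFANCM and 14.04% and 6.86% with siLuciferase, a difference of -0.684 points (-6.12 to 4.76; exact test, adjusted p = 0.893). Placed joins were 62.7% of leftward array joins with siFANCM in the shared runs and 60.8% with siLuciferase.

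**Figure D3:**
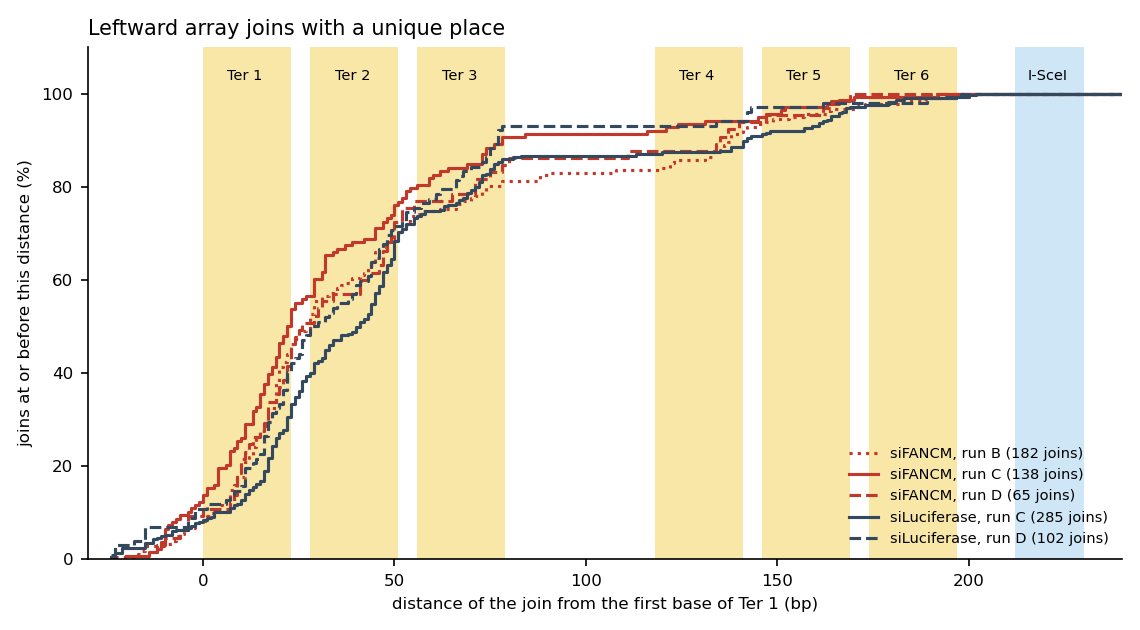
Cumulative share of placed leftward array joins by distance from the first base of Ter 1, in bp, for each siFANCM (red) and siLuciferase (dark) library; yellow bands are the 6 Ter elements and the blue band is the I-SceI site. By the end of Ter 1 the siFANCM libraries reach 41.5% to 50.0% and the siLuciferase libraries 30.5% and 40.2%.

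Ter elements cover 54.3% of the array window, and they held 76.2%, 73.4% and 74.5% of leftward array joins with siFANCM and 76.8% and 75.97% with siLuciferase. Within the element, whichever copy it was, the median join lay at base 15, 14 and 17 with siFANCM and at base 17 in both siLuciferase libraries. No single position dominated the array joins, counted here at their listed positions whether placed or not. The 5 positions with the most siFANCM joins in the shared runs were 3071 with 8 joins, 3195 with 7, and 3057, 3065 and 3077 with 6 each, of 346 array joins. The 5 with the most siLuciferase joins were 3188 with 17, 3070 with 14, 3095 and 3098 with 12 each and 3065 with 11, of 647. Position 3057, the site of the printed CA join, had 1 siLuciferase join. Position 3188, the last base of Ter 4 and a site of the ACTT join, had 6 siFANCM joins. In the shared runs a placed join at 3188 was seen with siFANCM only, 1 join in run D. The others listed there in either group may equally lie in the left repeat.

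Bait ends at array joins had lost fewer bases with siFANCM. The planned measure was a loss of 10 or more bases from the bait's usual end, and such joins made up 55.6%, 49.1% and 51.3% of array joins in siFANCM runs B, C and D and 56.6% and 62.2% in siLuciferase runs C and D. The difference was -8.47 points (-14.996 to -1.95; exact test, adjusted p = 0.0330). In run C it was -7.48 points (-15.3 to 0.303) and in run D -10.9 points (-22.8 to 1.10). Leaving out either run, or restricting the joins to leftward, placed or Ter-element ones, gave differences of the same sign that did not pass.

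Other limits on the loss gave differences of the same sign. Losses of 5 or more and of 20 or more bases gave -11.1 points (exact test, adjusted p = 0.0013) and -9.998 points (exact test, adjusted p = 0.0061). With shared bases counted as bait, a bait kept to its usual end was found in 10.8%, 18.5% and 12.4% of siFANCM array joins in runs B, C and D. In siLuciferase cells it was found in 4.28% and 3.85% of array joins. All 3 siFANCM libraries lay above both siLuciferase libraries. The difference was 12.6 points (8.34 to 16.8; odds ratio 4.68, 2.83 to 7.89), with 14.3 points in run C and 8.54 in run D. A loss of 40 or more bases was found in 16.8%, 15.9% and 16.8% of siFANCM joins and in 25.7% and 35.3% of siLuciferase joins. That difference was -12.3 points (-17.5 to -7.04; odds ratio 0.483). Both limits were chosen after the losses had been seen. Put in place of the planned limit, they gave adjusted p-values (exact conditional test) of 4.5e-10 and 9.6e-05, where the adjusted p over all alternatives of this measure ran from 4.5e-10 to 0.187. The median loss over all libraries was 10 bases (quartiles 3 to 25) with siFANCM and 13 bases (5 to 51) with siLuciferase.

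**Figure D4:**
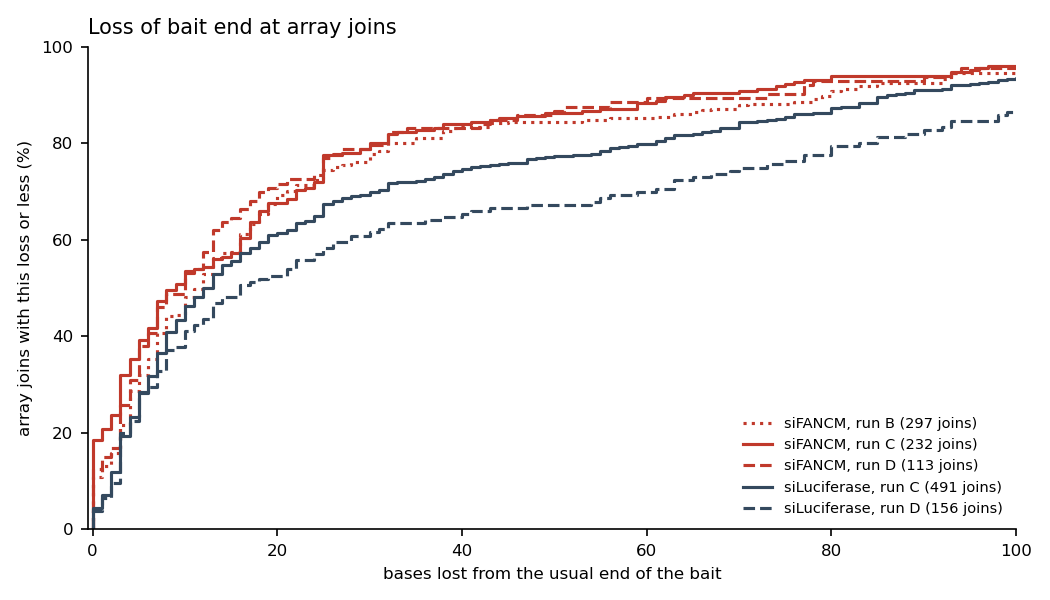
Cumulative share of array joins by the number of bases lost from the usual end of the bait, for each siFANCM (red) and siLuciferase (dark) library. At 0 bases lost the siFANCM curves start at 10.8% to 18.5% and the siLuciferase curves at 4.28% and 3.85%; the siLuciferase curves stay lower through the longer losses shown.

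Joins that kept the bait end differed in structure from the rest. Over all siFANCM libraries, 27 of the 89 such joins were blunt (30.3%) and 12 had microhomology of 2 or more bases (13.5%), whereas of the 553 that had lost bait, 45 were blunt (8.14%) and 292 had such microhomology (52.8%). In siLuciferase cells 6 of 27 joins with the bait end kept were blunt (22.2%), as were 51 of 620 others (8.23%), and 9 of 27 (33.3%) and 320 of 620 (51.6%) had such microhomology. A further 30 of the 89 siFANCM joins and 8 of the 27 siLuciferase joins with the bait end kept shared exactly 1 base. Bases shared by bait and prey were counted as bait, so a kept end with an overlap may have lost those bases. An overlap also cannot run past the end of the bait reference, so the bait end and the overlap are not independent readouts. The blunt joins printed for position 3055 kept the bait end.

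Microhomology and insertions at array joins gave no common direction over the runs. Microhomology of 2 or more bases was found in 46.5%, 47.0% and 50.4% of siFANCM array joins and in 45.2% (run C) and 68.6% (run D) of siLuciferase array joins. The siFANCM libraries were alike at 48.0% ± 2.16 (SD, n = 3 libraries), and the siLuciferase libraries were far apart at 56.9% ± 16.5 (SD, n = 2 libraries). The difference over both runs was -4.08 points (-10.6 to 2.45; exact test, adjusted p = 0.324). It was 1.77 points in run C and -18.1 points in run D, and an exact conditional test of equal odds ratios found that the runs differed (adjusted p = 0.0457).

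Insertions of 1 or more bases behaved in the opposite way. They were present in 22.6%, 17.2% and 23.0% of siFANCM array joins and in 28.9% and 10.3% of siLuciferase array joins. The difference was -4.50 points (-9.83 to 0.827; exact test, adjusted p = 0.187), made of -11.7 points in run C and 12.8 points in run D. The runs differed by the same exact test, with an adjusted p of 0.00075. The siLuciferase library of run C also had the highest share of array joins with bases outside the alignment, given above. Inserted bases count among those unaligned bases, so these shares are not independent. Leaving out such reads also takes out joins with long insertions. Without such reads the difference in insertions was -1.05 points over both runs (exact test, adjusted p = 0.815).

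Blunt joins, with neither overlap nor insertion, were 10.4%, 12.9% and 9.73% of siFANCM array joins and 9.37% and 7.05% of siLuciferase ones. The difference was 3.30 points (-0.765 to 7.37; exact test, adjusted p = 0.187). Insertions of 10 or more bases were found in 26 siFANCM and 39 siLuciferase joins, 3.37%, 4.74% and 4.42% by library against 7.13% and 2.56%, a difference of -1.14 points (-4.01 to 1.73; exact test, adjusted p = 0.602). Of these, 15 of 26 and 21 of 39 contained a 10-base match to the cassette, and 2 and 4 contained one to the bait. The longest was 84 bases with siFANCM and 99 bases with siLuciferase.

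**Figure D5:**
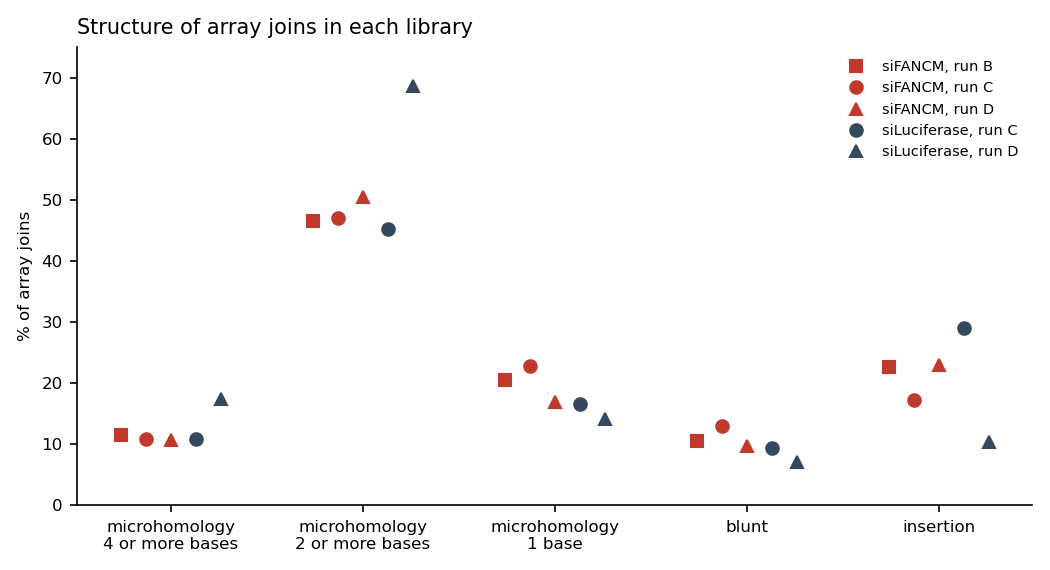
Structure of array joins in each library, in percent of array joins: overlaps of 4 or more, 2 or more or exactly 1 base, blunt joins, and insertions. The siLuciferase library of run D stands apart with 68.6% of overlaps of 2 or more bases and 10.3% of insertions; the siFANCM libraries lie together.

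Short overlaps led in both groups. TA and TT were each found in 18 of the 166 siFANCM joins with 2 or more shared bases in runs C and D, followed by ACTT with 11 and by AC and AG with 9 each. Among 329 siLuciferase joins, TT was found in 35, ACTT in 25, TA in 24, AC in 18 and CA in 14. ACTT, shown in the printed join at 3070, made up 6.63% of these overlaps with siFANCM and 7.599% with siLuciferase.

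Comparison with the other siRNAs in BRCA1flox/exon11 cells did not use the siLuciferase libraries. Against siBRCA1, 0 of 13 measures passed the exact conditional test within runs C and D, and 0 had an unadjusted p under 0.05. The difference in body share was 1.23 points (-3.50 to 5.96), and that in the rightward array share was -3.07 points (-6.79 to 0.648). Against siBLM 1 of 13 passed: the array held 8.87 points more of the body joins with siFANCM (3.54 to 14.2; exact test, adjusted p = 0.0183). Without reads that hold 20 or more unaligned bases this was 8.52 points (exact test, adjusted p = 0.0549), and 0 of 13 then passed, with 1 at an unadjusted p under 0.05. The rightward share was 8.96% and 7.69% with siBLM and 8.28% and 11.7% with siBRCA1 in runs C and D, beside 4.72% and 9.73% with siFANCM. In each of the shared runs the siLuciferase library had the highest body share and the lowest rightward share of these 4 groups.

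In runs C and D intact bait ends were also more frequent with siFANCM than with the other siRNAs. They made up 9.32% and 2.80% of siBLM array joins and 7.99% and 5.47% of siBRCA1 array joins in runs C and D. The siFANCM share was higher by 9.34 points than with siBLM (4.74 to 13.9; exact test, unadjusted p = 5.2e-05) and by 9.42 points than with siBRCA1 (4.82 to 14.03; exact test, unadjusted p = 5.7e-05). These tests were added after the values had been seen. Losses of 40 or more bases did not differ in this way from siBRCA1, with a difference of -0.728 points (-5.97 to 4.51).

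The siFANCM differences were then set beside those in BRCA1del/exon11 cells within the same runs. A genotype-by-siRNA term was tested for each measure by a likelihood-ratio test with run terms, and 2 of 13 passed. An exact conditional test of equal odds ratios, added afterwards, also passed 2 of 13, and its p-values are given. The body share moved by -14.4 points in BRCA1flox and by 2.37 points (-2.60 to 7.34) in BRCA1del (exact test, adjusted p = 7.0e-07). The BRCA1del value was 5.19 points in run C alone and -5.61 points in run D alone, so its sign differed between the runs. In BRCA1flox both runs were negative. Without the reads with 20 or more unaligned bases the values over both runs were -2.46 points in BRCA1flox and 0.647 points in BRCA1del. The genotypes then no longer differed past the threshold (exact test, adjusted p = 0.446). The rightward array share moved by 4.52 points in BRCA1flox and by -3.67 points (-7.43 to 0.0886) in BRCA1del (exact test, adjusted p = 0.00060). Without those reads it still passed (exact test, adjusted p = 0.0018), but with run D left out it did not (exact test, adjusted p = 0.128), and with run C left out the body share did not (exact test, adjusted p = 0.124). The BRCA1del difference in the rightward share was negative in the shared runs only. The BRCA1del siFANCM library of run A, a run with no BRCA1del siLuciferase library, held 64 rightward joins of 344 (18.6%), and over all runs the share was 12.2% with siFANCM and 10.3% with siLuciferase. BRCA1del siLuciferase libraries already held 7.78% and 13.8% rightward array joins in runs C and D and 59.6% and 71.1% of junctions in the body. Intact bait ends were also common there, at 13.3% and 19.4% with siLuciferase and 15.8% and 9.86% with siFANCM. The difference for siFANCM in BRCA1del was -0.718 points (-5.82 to 4.38), and the genotype term, tested after the values were seen, had an unadjusted exact p of 5.8e-07.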

How the data were processed

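Per the labels, reads came from a MiSeq. The submitters' processing notes name Bowtie2 and the mm9 build, while filters and removal of duplicates are not given in the sources used here. For each group a deposited table from the authors lists the position, strand, alignment ends, name and sequence of each read, so the values are positions and not counts. The cassette was rebuilt from all reads by voting over 5 passes, and features were located in it. Joins in the array were called from a 10-base bait seed and a 12-base prey seed, and 642 of 643 siFANCM and 647 of 647 siLuciferase array joins gave a structure. A library is a sequencing run of a group; nothing ties a run to a labelled sample. The caller was tested on simulated joins and the test of a common odds ratio on simulated independent counts. Those counts had no added spread between libraries and did not cover shares as low as the siLuciferase rightward share. Shares carry Wilson intervals and differences Mantel-Haenszel intervals with Sato's variance, both at 95%. Whether runs or genotypes differed was tested by exact conditional tests of equal odds ratios, and for genotype first by a likelihood-ratio test. Python 3.11.15, SciPy 1.17.1, pandas 2.3.3 and statsmodels 0.14.6 were used. Alternatives covered the runs used, repeated joins, the array window, placement, orientation, minimum lengths and, added later, reads with 20 or more unaligned bases. Named positions and overlaps were the 5 most frequent in each group. Groups, measures and lists were chosen with earlier results of these data known.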

Additional observations from a re-analysis of the deposited data

Results flagged for a closer look

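The siFANCM difference in body share differed between the genotypes over runs C and D together. Within BRCA1del it was 5.19 points in run C alone and -5.61 points in run D alone. The odds ratio of siFANCM to siLuciferase in BRCA1del/exon11 cells was 2.33 times that in BRCA1flox/exon11 cells (exact conditional test of equal odds ratios, adjusted p = 7.0e-07, which also passed the planned likelihood-ratio test), with -14.4 points in BRCA1flox and 2.37 points in BRCA1del. It did not pass without reads that hold 20 or more unaligned bases (-2.46 and 0.647 points; exact test, adjusted p = 0.446), nor without run C (exact test, adjusted p = 0.124).

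The difference in the rightward share of array joins also differed between the genotypes. The odds ratio in BRCA1del was 0.157 times that in BRCA1flox (the same exact test, adjusted p = 0.00060), with 4.52 points in BRCA1flox and -3.67 points in BRCA1del. It rests on 22 and 11 rightward joins in BRCA1flox and on 20 and 43 in BRCA1del in runs C and D. It did not pass without run D (exact test, adjusted p = 0.128). Over all runs the BRCA1del share was 12.2% with siFANCM, whose run A library held 18.6%, and 10.3% with siLuciferase, the opposite direction. Both genotype results use the same 2 BRCA1flox siLuciferase libraries.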

How the results depend on the processing

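No paired analysis was possible because the tables carry no replicate number to pair samples by; groups were compared within the sequencing runs they share. The body share kept its direction under all its alternatives and passed under all but one, in which reads with 20 or more unaligned bases were left out (-2.46 points). Without those reads 0 measures passed against siBLM and 1 by genotype. With either run C or run D left out, differences ran from 5.71 to 9.15 points for the array share of body joins, 2.89 to 8.45 for the rightward share, 1.34 to 19.5 for joins up to Ter 1, -10.9 to -7.48 for bait-end loss, -18.1 to 1.77 for microhomology, -11.7 to 12.8 for insertions, -2.39 to 1.86 for long insertions, -13.9 to 12.9 for rightward joins left of the array and -4.61 to 8.52 for joins past Ter 3. Counts of passing measures ran from 0 to 2 against siBLM and from 1 to 4 by genotype.

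With each position and strand counted once per library, microhomology (-12.7 points) and leftward joins left of the array (-13.1) passed, joins up to Ter 1 (10.5) did not, insertions (4.62) and long insertions (0.329) turned positive, and 4 measures passed by genotype. With the bait end added to that key, leftward joins left of the array passed at -6.43. Pooled over all runs, right-of-array joins (1.73) passed, bait-end loss (-5.47) did not, joins past Ter 3 turned to 2.66, and 0 measures passed against siBLM and 1 against siBRCA1. Bait-end loss did not pass over the Ter elements (-7.33), placed joins (-7.05) or leftward joins (-7.34). Blunt joins passed among placed joins (6.99), and microhomology from 1 base was 1.20. The cause of these changes was not tested. Rightward array joins numbered 2 to 36 by library.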
